A study of Mus musculus with 11 samples.

Results

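The cornified envelope and late differentiation genes were examined in the gingival epithelium of mice with and without depletion of langerin-expressing cells. The members were chosen by name: every Sprr and Lce gene, together with Lor, Flg, Flg2, Hrnr, Rptn, Tchh, Ivl, Krtdap, Cnfn, Cdsn, Casp14, Tgm1, Tgm3, Tgm5, Sbsn, Dmkn, Calml3, Asprv1 and Crct1. Of 57 such genes listed, 55 had values, out of 19170 genes with values in all. The other two, Lce6a and the pseudogene Sprr2c-ps, were listed without one. All mice were langerin-DTR animals kept under specific pathogen-free conditions. The paper's methods name male mice, while its reporting summary extends the findings to both sexes, so the sex of these mice is not settled. They carry the diphtheria toxin (DT) receptor under the control of the langerin gene, so that any langerin-positive cell, not Langerhans cells alone, was open to the toxin. The control group of 5 mice received PBS and the depleted group of 6 mice received DT, injected into the peritoneum on days 17, 24 and 31 of life. The epithelium was separated from the lamina propria with dispase at 8 weeks of age and its polyadenylated RNA was sequenced. The comparison shows whether the adult epithelium differed after DT injections in early life. The labels of PBS 5 give its library the number 6 and its value column the number 5, and that column was used. Both groups carried the receptor, and no untreated or wild-type mouse was among them. Effects of the toxin itself and of the loss of the cells therefore cannot be told apart.

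The cornified envelope is the layer of cross-linked protein that replaces the plasma membrane of a keratinocyte as it moves to the surface and dies. Precursors such as loricrin, involucrin and the small proline-rich (SPRR) and late cornified envelope (LCE) proteins are joined by transglutaminases, while the filaggrin-like proteins bundle keratin and are later cut by proteases of the outer layers. The attached gingiva is a keratinizing oral epithelium and makes such an envelope, and SPRR2 genes are known to be induced in epithelia under stress or inflammation.

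Of the 55 members, 44 lay on chromosome 3 between bases 92080271 and 93449077 of GRCm38, a stretch of 1.37 Mb within the epidermal differentiation complex, and 11 lay elsewhere. The 12 Sprr2 genes lay in a row from 92215799 to 92433925, and the 20 Lce genes from 92646535 to 93019060. Other genes lay within these rows, among them Gm9774 in the first and Kprp in the second. Promoter entries of RefSeq on GRCm38.p6, which hold 250 bases before and 50 after each gene's start, existed for 50 members. The bases just before the start are shown for Sprr2 and Lce genes, the 2 families with the most members, and for Lor, which had the highest level per length. They are written in the direction of transcription and end at the last base before the start. Capitals mark the A/T-rich motif TATAAA or ATAAAA and, where present, the motif TGANTCA. With C or G in place of N, it is the sequence that AP-1 factors recognise. Any base was accepted there, so the motif is wider than that sequence.
The 200 bases before the starts of 3 Sprr2 genes are at chr3:92338940-92339139, chr3:92351943-92352142 and chr3:92407791-92407990, all on the + strand.
Sprr2d: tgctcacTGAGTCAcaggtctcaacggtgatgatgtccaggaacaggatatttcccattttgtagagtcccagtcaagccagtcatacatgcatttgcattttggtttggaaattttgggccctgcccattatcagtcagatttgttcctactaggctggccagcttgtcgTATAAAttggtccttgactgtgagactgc
Sprr2e: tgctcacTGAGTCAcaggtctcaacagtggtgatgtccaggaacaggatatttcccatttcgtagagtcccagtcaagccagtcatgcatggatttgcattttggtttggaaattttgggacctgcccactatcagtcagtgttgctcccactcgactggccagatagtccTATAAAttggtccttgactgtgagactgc
Sprr2i: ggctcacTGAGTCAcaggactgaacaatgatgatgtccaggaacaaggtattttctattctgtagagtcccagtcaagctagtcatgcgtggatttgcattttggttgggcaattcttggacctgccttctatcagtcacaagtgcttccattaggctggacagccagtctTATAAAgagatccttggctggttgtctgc
The 50 bases before the starts of 3 Lce1 genes are at chr3:92670316-92670365, chr3:92790515-92790564 and chr3:92851287-92851336 on the - strand, those of Lce3d at chr3:92957340-92957389 on the + strand and those of Lor at chr3:92083143-92083192 on the - strand.
Lce1a2: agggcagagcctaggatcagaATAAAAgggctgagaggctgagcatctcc
Lce1j: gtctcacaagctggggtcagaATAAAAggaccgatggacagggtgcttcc
Lce1l: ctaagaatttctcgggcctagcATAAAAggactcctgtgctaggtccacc
Lce3d: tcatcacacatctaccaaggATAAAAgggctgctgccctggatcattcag
Lor: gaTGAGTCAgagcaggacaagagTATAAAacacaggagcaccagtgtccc

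TATAAA or ATAAAA, which overlap in the run TATAAAA, began between 40 and 20 bases before the start in 33 of the 50 promoters of the members (66.0%) and in 3.46% of the promoters of all 27025 genes. The form differed between families. TATAAA was found in 7 of the 10 Sprr2 promoters, each time 29 bases before the start, and in 2 of 13 Lce1 promoters. ATAAAA without a preceding T was the usual form in the Lce1 and Lce3 families, where 12 of 13 and 5 of 6 promoters held ATAAAA. On the opposite strand of this window TATAAA was in none of the 50 and ATAAAA in 1. TGANTCA, which reads the same on both strands, was found in the 250 bases before the start of 17 of the 50 members (34.0%) and of 7.82% of all genes. The same 7 Sprr2 promoters that held TATAAA also held TGANTCA, between 182 and 198 bases before the start, whereas none of the 13 Lce1 and 6 Lce3 promoters held it. The entries of Sprr2a1 and Sprr2a2 did not differ in any of 300 bases, and that of Sprr2a3 matched them over 272 bases at a shifted start. A match is a description of the sequence and no evidence of binding.

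Between 17509328 and 24325514 reads were counted per mouse, as read from the steps between the low values. The members held 3.75% to 4.29% of all normalized counts in the PBS mice (mean 4.03% ± 0.205, SD, n = 5) and 3.93% to 4.32% in the DT mice (4.05% ± 0.146, SD, n = 6). The sums of 3 keratins of non-keratinizing layers (Krt4, Krt13, Krt78) and of 5 keratins of keratinizing layers (Krt1, Krt10, Krt2, Krt76, Krt77) both lay between 707643 and 1607350 normalized counts in every mouse, against 1110 to 1595 for 7 fibroblast genes. Sums of 7 inner root sheath keratins and of 5 melanocyte genes, of which 2 each had values, stayed at or under 17.2 normalized counts. Cd207, the gene of langerin, was not called between the groups (limma log2 fold change -0.19, adjusted p = 0.853). The paper reports that gingival Langerhans cells were missing early after the injections, then returned step by step. They were back at their usual frequency by 8 weeks of age, when these samples were taken. These are bulk samples, in which fewer cells of a type and less RNA per cell cannot be told apart.

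Levels of the members spanned from loricrin, with 67498 normalized counts per kb of exon on average, down to Sprr2a1 with 1.74. Only 5.74% of the 75-base windows of the Sprr2a1 transcripts occur in no other gene, so its own level is uncertain. Repetin (Rptn) and loricrin were the 5th and 14th most abundant transcripts of all genes by normalized count, and the 3 highest members (Rptn, Lor and Tgm3) made up 50.8% of the members' counts. After loricrin, the order per kb of exon was Rptn with 49985, Sprr3 with 38970, Krtdap with 31691, Calml3 with 24879 and Dmkn with 24672. The ranges of Lor and Rptn over the 11 mice overlapped, as did those of every following neighbour named here. Filaggrin had 466 normalized counts per kb and filaggrin-2 had 30.5, far under hornerin with 4518. Involucrin, a classical marker of the envelope, was low with 72.0 per kb. Dividing by length assumes reads from the whole transcript, which the labelled library kit gives, although the trimming was modelled on a guide for 3′-end libraries. Length here was the union of all annotated exons, 18829 bases for Flg and 20803 for Flg2. A shorter main transcript, or reads lost to repeats within a gene, would make such values too low. Sprr4, Lce1m and Sprr2a1 stayed under a mean of 10 normalized counts and are left out of the medians that follow, which leaves 52 members.

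**Figure D1:**
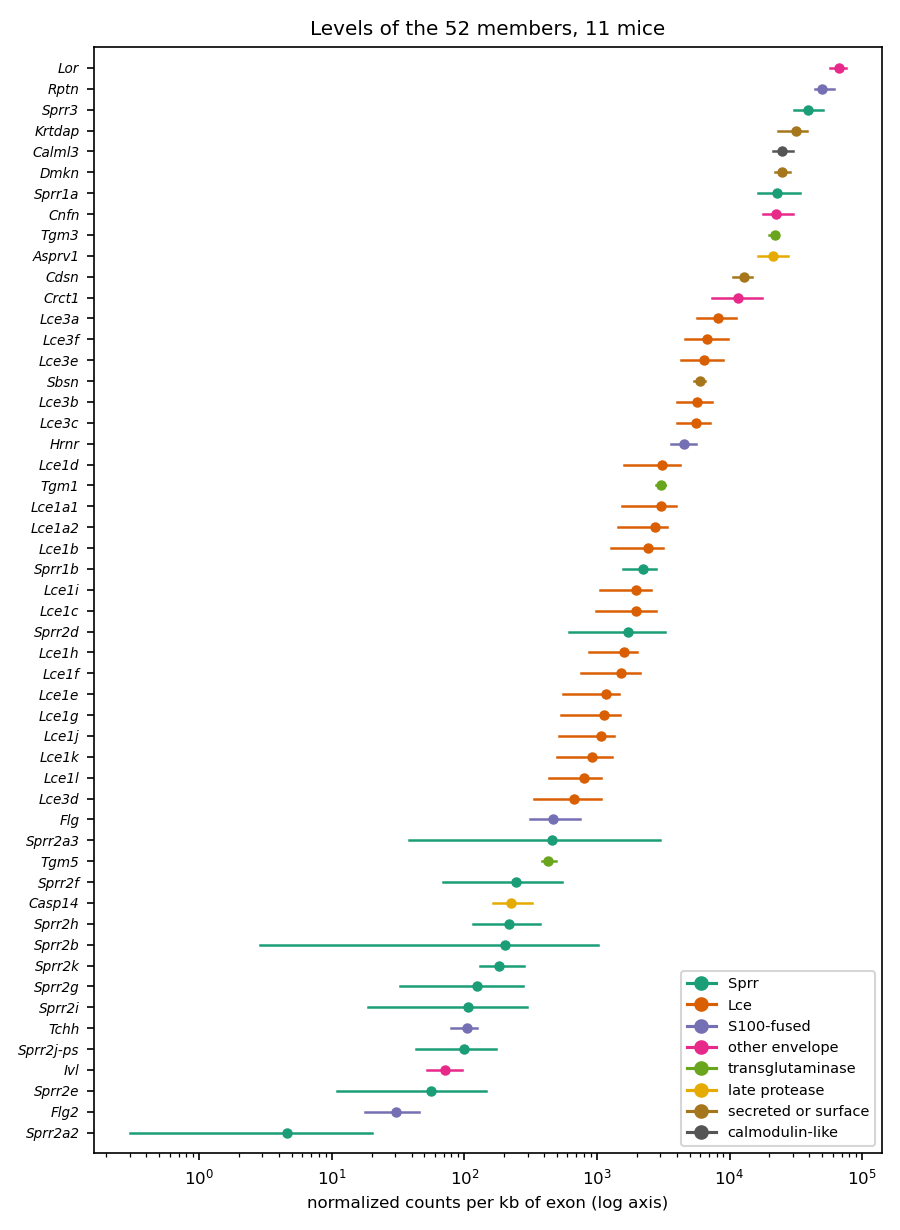
Normalized counts per kb of exon (log axis) of the 52 members whose mean normalized count was 10 or more, where points are means over 11 mice and lines run from the lowest to the highest mouse, coloured by role. Lor, Rptn and Sprr3 stand at the top, the Lce3 genes apart from Lce3d lie above the Lce1 genes, and most Sprr2 genes lie at the bottom with the longest lines.

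None of the 55 members passed the threshold of an adjusted p under 0.1 (limma on log2(normalized count + 1), Benjamini-Hochberg adjustment over all genes), at which 107 of 19170 genes were called (0.558%). At an unadjusted p under 0.05 there were 3 members, Cdsn and Lce1l with higher and Sprr2a2 with lower values in DT mice, where 11.5% of all genes lay. The groups overlapped in all 52 members, whereas 2.11% of the 13477 genes of such a mean had groups without overlap. The median log2 fold change was 0.09 over the 52 members and 0.0022 over all genes of such a mean. Above 0 were 39 members, with 13 below, and 50.7% of all genes of such a mean. The 39 include 13 Lce1 and 6 Lce3 genes, which moved together from mouse to mouse and are not separate observations. The 95% intervals of 45 members lay within a doubling and a halving and those of 27 members within 1.5-fold either way. Each interval was taken for its gene alone, without adjustment over the members, so larger changes are not excluded. The 7 intervals that reached beyond a doubling or a halving all belonged to Sprr2 genes.

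**Figure D2:**
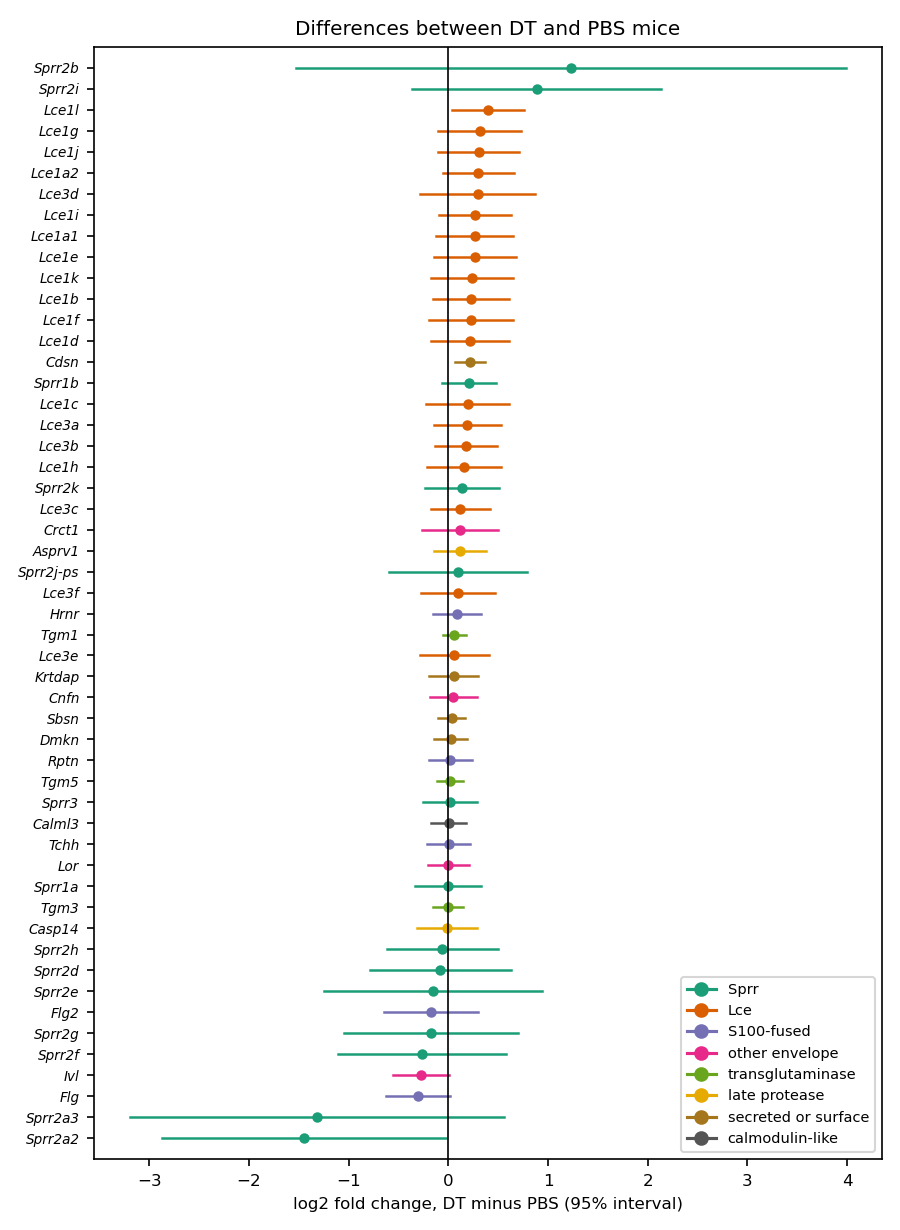
Log2 fold change on the scale log2(normalized count + 1), DT minus PBS, of the 52 members with 95% intervals from limma, coloured by role and ordered by size. The interval of every member but Cdsn, Lce1l and Sprr2a2 includes 0, those of the Lce genes all centre above 0, and those of Sprr2b, Sprr2a3 and Sprr2a2 are the widest.

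Among the SPRR genes, which encode short proline-rich cross-bridging proteins of the envelope, no member passed the threshold. In every Sprr2 gene but Sprr2a2, the SD among mice of one group on the log2 scale exceeded the size of the log2 fold change. Sprr2a3 had 129, 298, 8595, 248 and 3073 normalized counts in the PBS mice 1 to 5, and from 109 over a median of 295 to 848 in the DT mice. PBS 3 and PBS 5 were the only mice above 848, and the other PBS mice lay within the range of the DT mice. The log2 fold change was -1.32 (SE 0.88, adjusted p = 0.602), with an interval from -3.19 to 0.56. Sprr2a2 had 4.53, 9.72, 58.3, 2.73 and 42.0 normalized counts in the PBS mice and 0.875 to 11.8 (median 4.67) in the DT mice, again with PBS 3 and PBS 5 on top (log2 fold change -1.45, SE 0.67, adjusted p = 0.426). The summed counts of Sprr2a1, Sprr2a2 and Sprr2a3 were between 110 and 868 in all mice apart from PBS 3 with 8680 and PBS 5 with 3129. These copies are nearly identical, so their separate values are uncertain. Only 5.74%, 5.34% and 52.5% of the 75-base windows of the transcripts of Sprr2a1, Sprr2a2 and Sprr2a3 occur in no other gene, and the models of Sprr2a1 and Sprr2a2 overlap on the same strand by 5992 bases.

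Sprr2b had 2.26, 4.86, 210, 7.28 and 229 normalized counts in the PBS mice and 8.02 to 793 (median 26.7) in the DT mice. PBS 3, PBS 5, DT 5 (793) and DT 6 (415) were high and the other 7 mice were at 36.3 or less. Its log2 fold change was 1.23 with an SE of 1.30 (adjusted p = 0.771), and its SD among mice of one group, 2.82 on the log2 scale, was the largest of the members. Sprr2i showed the same 4 mice on top, with 18.1, 11.7, 77.4, 22.8 and 96.5 normalized counts in the PBS mice and 19.5 to 183 (median 51.4) in the DT mice (log2 fold change 0.89, SE 0.59, adjusted p = 0.596). Sprr2e followed another order. It had 19.2, 20.4, 56.3, 12.7 and 94.4 normalized counts in the PBS mice and 7.05 to 58.5 (median 30.9) in the DT mice, with PBS 5, DT 1 and PBS 3 on top and DT 3 at the bottom (log2 fold change -0.15, SE 0.51, adjusted p = 0.944). Without PBS 5 the log2 fold change was 0.24, without DT 3 it was 0.21 and without PBS 3 it was 0.06. Sprr2d, Sprr2f and Sprr2g had their highest DT value in DT 1 and, with Sprr2h, the lowest value in DT 3. Sprr2k, the last of the row, varied least among the Sprr2 genes with an SD of 0.34.

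Sprr1b, Sprr3 and Sprr1a, which follow the Sprr2 row in this order, were more abundant and steadier. Sprr3 had 41661, 47926, 50656, 37288 and 59120 normalized counts in the PBS mice and 39737 to 62241 (median 44932) in the DT mice, and its log2 fold change of 0.02 had an interval from -0.25 to 0.29 (adjusted p = 0.979). Sprr1b had 1572, 1314, 2110, 1389 and 2309 normalized counts in the PBS mice and 1722 to 2280 (median 1979) in the DT mice. All DT mice were above PBS 1, PBS 2 and PBS 4 and below PBS 5, and the difference did not pass the threshold (log2 fold change 0.21, SE 0.13, adjusted p = 0.569). Sprr4 was near 0 in every mouse, at most 4.02 normalized counts.

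**Figure D3:**
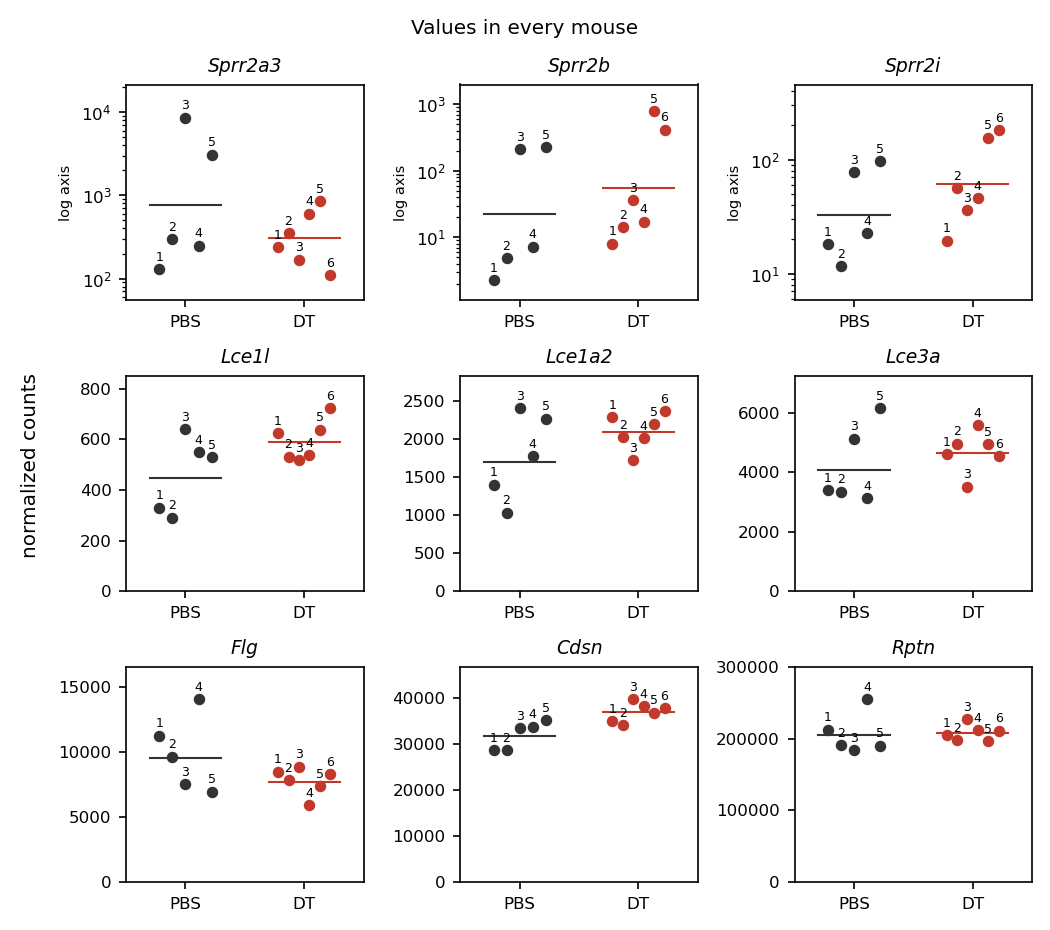
Normalized counts of 9 members in each mouse, with the mouse number above each point and the group mean on the log2 scale as a line; the upper 3 panels have log axes and the others start at 0. PBS 3 and PBS 5 stand above the other PBS mice in the 3 Sprr2 panels and in Lce3a, PBS 1 and PBS 2 stand below the other mice in the Lce1 panels, and PBS 4 is highest in Flg and Rptn.

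The LCE genes encode precursors added to the envelope late in its assembly. All 13 Lce1 genes of a mean of at least 10 and all 6 Lce3 genes had a positive log2 fold change, with medians of 0.27 and 0.15, and none passed the threshold. Neighbouring Lce genes moved together from mouse to mouse, so they are not separate observations of one direction. Lce1l, the lowest of the 13, had 330, 292, 640, 549 and 529 normalized counts in the PBS mice and 518 to 722 (median 581) in the DT mice. PBS 1 and PBS 2 were low and the other 9 mice were at 518 or more, and the log2 fold change was 0.40 (SE 0.17, adjusted p = 0.375). Lce1a2 had 1403, 1034, 2404, 1777 and 2267 normalized counts in the PBS mice and 1724 to 2365 (median 2111) in the DT mice (log2 fold change 0.30, SE 0.17, adjusted p = 0.512). The values of Lce1j were 523, 362, 933, 814 and 811 normalized counts in the PBS mice and 669 to 942 (median 833) in the DT mice (0.31 on the log2 scale, SE 0.19, adjusted p = 0.572). In both genes PBS 1 and PBS 2 again lay below all other mice. Averaged over the 13 Lce1 genes, PBS 1 and PBS 2 lay 0.47 and 0.92 below the mean of all mice on the log2 scale, and PBS 4 lay 0.03 above it.

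Lce3a, the most abundant Lce gene, had 3391, 3346, 5128, 3120 and 6139 normalized counts in the PBS mice and 3519 to 5567 (median 4777) in the DT mice. PBS 5 was above and PBS 1, PBS 2 and PBS 4 were below all DT mice, so the groups overlapped (log2 fold change 0.19, SE 0.16, adjusted p = 0.687). PBS 4, near the mean of all mice in the Lce1 family, on average lay 0.55 below it in the Lce3 family. Lce3d, less abundant than its neighbours, varied most with an SD of 0.58. Between 54.4% and 93.9% of the windows of the Lce3 genes and 86.5% to 100% of those of the Lce1 genes are found in no other gene, so the split among Lce3c to Lce3f is the less certain. Lce1m had at most 11.4 normalized counts in a mouse.

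The S100-fused proteins, large keratin-binding proteins with calcium-binding ends, were not called, and Flg, Flg2 and Hrnr were low in the PBS mice in which Sprr2 and Lce3 genes were high. Filaggrin (Flg) had 11286, 9685, 7575, 14079 and 6990 normalized counts in the PBS mice and 5922 to 8915 (median 8109) in the DT mice. PBS 1, PBS 2 and PBS 4 were above all DT mice and PBS 3 and PBS 5 were among them (log2 fold change -0.31, SE 0.15, adjusted p = 0.451). Filaggrin-2 (Flg2) had 817, 853, 395, 955 and 432 normalized counts in the PBS mice and 373 to 720 (median 616) in the DT mice, with the same split of the PBS mice (log2 fold change -0.17, SE 0.22, adjusted p = 0.815). Repetin had 212183, 190559, 184103, 254417 and 190145 normalized counts in the PBS mice and 196590 to 226571 (median 207859) in the DT mice, and its log2 fold change of 0.02 had an interval from -0.20 to 0.24 (adjusted p = 0.962). PBS 4 was the highest mouse in Flg, Flg2, Hrnr and Rptn. Hornerin (Hrnr) and trichohyalin (Tchh), the latter known from hair follicles and tongue papillae, had log2 fold changes of 0.08 and 0.0026. Other genes overlap the models of Flg, Hrnr, Rptn, Tchh and Tgm1, none of them with a mean above 29.0 normalized counts.

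Of the other envelope precursors, loricrin, the main glycine-rich component, had 119254, 101245, 132164, 113367 and 134891 normalized counts in the PBS mice and 101619 to 132134 (median 121751) in the DT mice. The groups covered nearly the same range, and the log2 fold change of 0.00066 had an interval from -0.20 to 0.21 (adjusted p = 0.999). Involucrin (Ivl), an early scaffold of the envelope, had 153, 134, 185, 152 and 137 normalized counts in the PBS mice and 99.8 to 172 (median 126) in the DT mice. Only DT 3 was above 134 in that group, and the difference did not pass the threshold (log2 fold change -0.27, SE 0.13, adjusted p = 0.438). Cornifelin (Cnfn) and Crct1, a cysteine-rich relative at the end of the Lce row, had log2 fold changes of 0.05 and 0.12, and Crct1 was highest in PBS 5 and lowest in PBS 4.

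The transglutaminases, which form the cross-links, were the steadiest of all roles, with SDs among mice of one group from 0.067 to 0.11. Tgm3, the soluble enzyme that is activated by proteolysis, had 88517, 91781, 88602, 89112 and 93915 normalized counts in the PBS mice and 82436 to 94809 (median 92345) in the DT mice, with the lowest and the highest value both in DT mice (log2 fold change -0.0028, SE 0.07, adjusted p = 0.992). Tgm1, the membrane-anchored enzyme, had 8758, 9017, 10363, 9254 and 9963 normalized counts in the PBS mice and 9304 to 10261 (median 10007) in the DT mice (log2 fold change 0.06, SE 0.05, adjusted p = 0.718). PBS 3 was the highest mouse, above every DT mouse. The intervals of the 3 enzymes ran from -0.15 to 0.17.

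Of the late proteases, Asprv1, which cuts profilaggrin, had 26881, 27444, 37604, 25187 and 42445 normalized counts in the PBS mice and 29234 to 37579 (median 34094) in the DT mice. PBS 3 and PBS 5 were above and the other PBS mice below all DT mice (log2 fold change 0.11, SE 0.12, adjusted p = 0.778). Casp14, the caspase of cornifying cells, had a log2 fold change of -0.02 (adjusted p = 0.982) and was likewise highest in PBS 5 and PBS 3.

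Among the secreted and surface proteins, corneodesmosin (Cdsn), the adhesive protein of the junctions between corneocytes, had the smallest p of the members. It had 28573, 28618, 33320, 33718 and 35168 normalized counts in the PBS mice and 34107 to 39612 (median 37245) in the DT mice. All DT mice lay above the PBS mice apart from PBS 5, which was above DT 1 and DT 2. The log2 fold change was 0.21 (SE 0.07, interval 0.06 to 0.36), and the adjusted p of 0.257 missed the threshold. Dermokine (Dmkn), a secreted protein of upper layers, had 48972, 51616, 57399, 47898 and 62778 normalized counts in the PBS mice and 51253 to 58042 (median 53830) in the DT mice, inside the range of the PBS mice (log2 fold change 0.02, SE 0.08, adjusted p = 0.944). Krtdap and suprabasin (Sbsn), its neighbours on chromosome 7, had log2 fold changes of 0.05 and 0.03. Calml3, the calmodulin-like protein of stratified epithelia, had 33534, 35121, 35144, 30202 and 42749 normalized counts in the PBS mice and 31967 to 39051 (median 34986) in the DT mice. PBS 5 was the highest and PBS 4 the lowest of all mice (log2 fold change 0.0063, SE 0.08, adjusted p = 0.987).

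The members differed more between mice of one group than most genes did. The median SD of log2(normalized count + 1) among mice of one group, pooled over both groups, was 0.358 for the 52 members and 0.147 for all genes of such a mean. The SDs of 44 members were above that median, and those of 12 members were above 0.426, which 10% of all genes exceeded. The PBS mice were the more variable group. Their median SD over the members was 0.475 against 0.202 in the DT mice, and 47 of 52 members had the larger SD in the PBS mice, as had 69.3% of all genes, for which the medians were 0.165 and 0.119. PBS 5 was the highest mouse in 18 members and PBS 3 in 17, or 34.6% and 32.7% of the members, where they were highest in 14.5% and 11.8% of all genes. PBS 2 was the lowest mouse in 17 members and PBS 4 in 14, or 32.7% and 26.9%, against 7.69% and 17.3% of all genes. The 17 members include all 13 Lce1 genes of such a mean. Neighbouring genes moved together, so these counts do not rest on separate observations. Members outside the stretch on chromosome 3 were steadier, with a median SD of 0.123 against 0.384 inside it. The 11 other genes of such a mean in the same stretch had a median SD of 0.411. These sets were not matched for level, and the part of level in the difference was not tested. Inside the stretch, the abundant Rptn, Lor and Hrnr had SDs of 0.140, 0.149 and 0.217. Of the members elsewhere, Tgm5 and Casp14, with means of 1355 and 538 normalized counts, had SDs of 0.106 and 0.295.

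**Figure D4:**
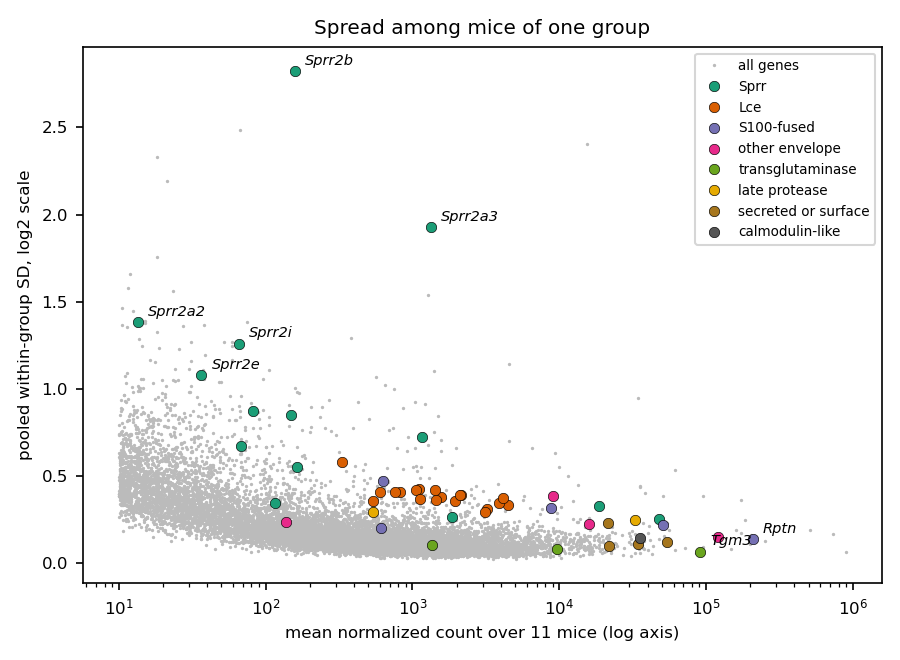
Pooled SD among mice of one group, on the scale log2(normalized count + 1), against mean normalized count (log axis) for 13477 genes, with the 52 members coloured by role. Sprr2b, Sprr2a3, Sprr2a2, Sprr2i and Sprr2e have the largest SDs of the members, from 1.08 to 2.82, and Tgm3 the smallest with 0.067.

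**Figure D5:**
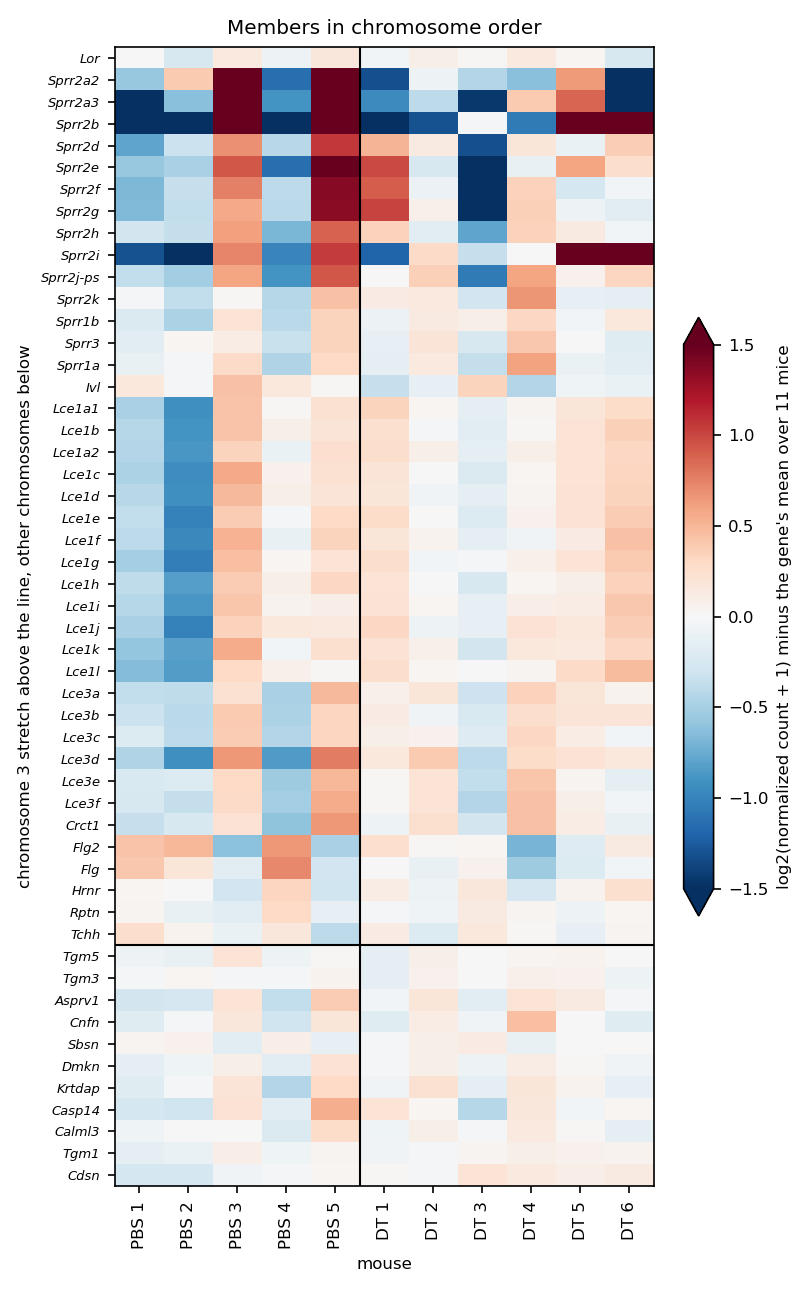
Log2(normalized count + 1) minus the gene's mean over 11 mice for the 52 members (rows, in chromosome order, with the stretch on chromosome 3 above the horizontal line) in each mouse (columns, PBS left and DT right); colours are capped at 1.5 either way. The Lce1 rows share low values in PBS 1 and PBS 2, most Sprr2 rows high values in PBS 3 and PBS 5, and Flg and Flg2 have the opposite sign in those mice.

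PBS 3 and PBS 5 had the highest sums of all mice for 3 of the 14 lists of cell type markers, those of Langerhans cells, leukocytes and junctional or simple epithelium. Other lists ran differently, with fibroblast genes highest in DT 6 (1595 normalized counts), endothelial genes in DT 2 (118, against 59.8 in PBS 5) and salivary gland genes in PBS 2 (255, against 125 and 114 in PBS 3 and PBS 5). The sum of 7 genes that mark Langerhans cells, several of which other antigen-presenting or epithelial cells also express, was 4998 normalized counts in PBS 3 and 4040 in PBS 5, 2159 to 2737 in the other PBS mice and 1598 to 3054 in the DT mice. For 6 of 7 leukocyte genes with values the sums were 443 and 375 in these mice and 121 to 336 elsewhere, and for 5 of 6 junctional or simple epithelium genes with values they were 2495 and 3064 against 766 to 2311, mostly from Odam. None of these genes was at 0 in all mice, and no gene of these lists passed the threshold. Their part in the values of the Sprr2, Lce3 and Flg genes was not tested. With both PBS 3 and PBS 5 left out, a choice made after their values of these same genes had been seen, 26 members passed the threshold beside 10.3% of all genes. Of these, 24 were higher in DT mice, among them 13 Lce1, 5 Lce3 and 3 Sprr genes as well as Cdsn, Asprv1 and Crct1, and Flg and Flg2 were lower. Only 3 PBS mice then remained, and since the pair was chosen by the outcome, these calls do not stand beside those of the full groups as evidence of a change.

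Other genes of cornification gave the same count. Of 65 genes in 6 lists, 64 had values, and none passed the threshold in either direction with limma, while 10 higher and 1 lower in DT mice had an unadjusted p under 0.05, where 11.5% of all genes lay. Without PBS 5, 5 of them passed it (Calm4, Csta1, Ctsl, Klk8 and S100a7a, all higher in DT mice) beside 1.35% of all genes, and without PBS 4 it was Prdm1 alone, beside 0.887% of all genes. The smallest p belonged to Ctsl, the gene of cathepsin L, which processes transglutaminase 3. It had 2763, 2947, 3036, 2693 and 3489 normalized counts in the PBS mice and 3323 to 3680 in the DT mice, of which all but DT 2 and DT 3 were above PBS 5 and all were above the other PBS mice (log2 fold change 0.24, SE 0.06, adjusted p = 0.151). In the list of 12 transcription factors of terminal differentiation, Prdm1 had the smallest p (0.24, SE 0.06, adjusted p = 0.154). Nfe2l2 and Klf4 in that list had log2 fold changes of 0.15 and 0.16 and Elf3 of -0.39, each with an unadjusted p under 0.05. Among 10 further precursors and scaffold genes with values, Csta1, the cysteine protease inhibitor stefin A, came first (0.30, SE 0.08, adjusted p = 0.196), and among 8 keratinocyte S100 genes it was S100a7a (0.25, SE 0.09, adjusted p = 0.263). Sfn led the 12 upper layer genes (0.14, adjusted p = 0.398), and no cornifying keratin of 9 had an adjusted p under 0.607. In the stretch on chromosome 3, 16 other genes had values, and 1 of them was called, Gm43735, annotated as an antisense RNA between Lor and the Sprr2 row, with a log2 fold change of 0.50 (adjusted p = 0.0445). It is named because it alone was called, and whether the counting used the strand is not given in the sources used here.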

How the data were processed

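Epithelium of 11 mice was measured by stranded polyA RNA-seq. The authors trimmed, aligned (TopHat2 2.1.1), counted (HTSeq) and deposited normalized counts, that is gene counts divided by DESeq2 size factors. The submitters' notes name cutadapt 2.10, HTSeq 2.01, DESeq2 1.36.0 and GRCm39, whereas the paper's methods name GRCm38 and other versions. Positions and exon lengths here come from GENCODE M21 (GRCm38), matched by gene ID for 19117 of 19170 genes, and sequences from RefSeq. The unit of the deposited column was treated as normalized values, since 36244 of 55414 listed genes had none, so no count model was run and edgeR and DESeq2 were not run here. Within 0.1 read, 100% of the values above 0 were whole multiples of what 1 read is worth, which gave the depth.

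limma 3.58.1 (R 4.3.3, trend) was fitted to log2(normalized count + 1) over all genes and 11 mice, with Benjamini-Hochberg adjustment and the study's threshold of 0.1. A pseudocount of 1 understates changes of low genes. Medians and SDs used genes whose mean normalized count was 10 or more. Values of each PBS mouse, with the lowest, median and highest DT mouse, are given for the member of each role with the highest mean and with the smallest p, the 5 smallest p in each direction and the 5 largest SDs. The members and lists were chosen with earlier results of these data known. Uniqueness was the share of 75-base transcript windows found in no other gene. Nothing in the labels says that the mice came from separate litters or cages. The p-values weigh the group difference against the spread between these mice, taken as independent, and hold only if they were.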

Additional observations from a re-analysis of the deposited data

Results flagged for a closer look

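The PBS and the DT mice were checked for 41 measures, or 82 sets of values, and in 2 of these a mouse lay apart from the others of its group by a gap large against the group's range. Chance gives about 1 in 20, so 2 of 82 is no more than chance would give. Nfe2l2, which encodes a factor of the oxidative stress response, had 8301 normalized counts in PBS 5 and 9162 to 9298 in the other PBS mice. S100a7a, the gene of a psoriasin-like S100 protein, had 2816 normalized counts in PBS 5 and 1926 to 2078 in the other PBS mice. The check covered the 22 members named with their values, and none of these was found in this way.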

How the results depend on the processing

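No member passed the threshold under either pseudocount (0.1 or 10), with genes of a mean under 10 left out, with TMM scaling, quantile normalization, array weights or the replicate block, or when any 1 mouse was left out, so that this count was 0 throughout (range 0 to 0). Leaving out both PBS 3 and PBS 5, an alternative chosen after seeing the data, gave 26 members, 1967 of all genes and 13 other cornification genes, and a median of 0.41 over the members. Array weights gave 189 genes in all and 3 other cornification genes (Csta1, Ctsl and S100a7a). Leaving out 1 mouse gave 27 (without DT 5) to 259 (without PBS 5) genes in all and 0 to 5 other cornification genes, with 5 without PBS 5 (Calm4, Csta1, Ctsl, Klk8 and S100a7a) and 1 without PBS 4 (Prdm1). The median log2 fold change of the members was 0.0239 without PBS 2 and 0.22 without PBS 5. Of the 22 members named with their values, 7 changed sign when 1 mouse was left out (Calml3, Dmkn, Lor, Rptn, Sprr2e, Sprr3 and Tgm3), none of them past the threshold. Sprr2b ranged from 0.47 without DT 5 to 2.05 without PBS 5, Flg2 from -0.35 without PBS 3 to -0.03 without PBS 4, and Lce1j from 0.10 without PBS 2 to 0.44 without PBS 3. The ratio of the members' median SD to that of all genes, 2.44, was 1.92 to 2.54 when a mouse was left out, and the difference in the share held by the members, 0.0169 percentage points, was -0.0532 to 0.082. The cause of these changes was not tested. The labels do not say whether equal replicate numbers pair the mice. The correlations of same-numbered mice ran from -0.233 to 0.324, which cannot decide it, since mice of different numbers were not compared. The replicate block, which set PBS 5 beside DT 5 although the library of PBS 5 carries the number 6, gave 35 genes in all. The tests on counts that had been planned, edgeR and DESeq2, were not run. The deposited column was treated as normalized values, although these were whole multiples of what 1 read is worth. Whether a count model would give the same calls is not known. Depth was similar in all mice, and the number of mice and the spread of the PBS group limit what differences could be seen, most of all in Sprr2 genes.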
